A study of Mus musculus with 4 samples.

Results

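The collagen genes of mouse were examined across the cells of regenerating digits. They were taken as every gene whose symbol is Col, a number, the letter a and a number, such as Col1a1, and 44 of the 33696 measured genes met this rule. All 44 had at least 1 unique molecule count (UMI, a count of captured transcripts) in each of 4 single-cell libraries. Collagens are the main structural proteins of the extracellular matrix. Each molecule is a helix of 3 chains made in the endoplasmic reticulum, where prolines and lysines are hydroxylated and chaperones assist folding, and most collagens are secreted, trimmed by proteinases and cross-linked. Fibrillar collagens give bone, tendon and dermis their strength, type IV collagen forms the network of basement membranes, and other members link these structures to cells or span the cell membrane.

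The libraries came from hindlimb digits 2 to 4 of female C57BL/6 mice aged 6 to 8 weeks, with the digits of 10 mice pooled in each library. One pair compared mice fed chow with 30 mg/kg SAR131675, an inhibitor of the lymphatic growth factor receptor VEGFR3, with mice on matched control chow. The labels give 8 days of chow, while by the methods the SAR131675 chow began before amputation and was kept throughout. The other pair compared digits of a limb whose lymph nodes had been removed (LNR) with control digits, called sham here. The title of that sample reads only control, and by the study's text the sham side was the opposite limb. Both pairs addressed whether interfering with lymphatic vessels alters the regenerating digit. By the methods, amputation was through P3, the terminal phalanx, of hindlimb digits 2 and 4, and whether digit 3 was also amputated is not given. The sources differ on the day of collection for the diet pair, so no time after amputation is used here. Each of the 4 groups was 1 library and its own batch (batches 1 to 4 in the labels), so treatment and batch cannot be told apart, and no test across samples was possible. The intervals below cover counting error at 95% only and treat UMIs as independent, which UMIs of the same cell are not. The digits had been digested with collagenases and Dispase, and cells that stayed in the matrix would not be counted.

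After barcodes with 200 to 5500 genes, at most 30000 UMIs and at most 10% mitochondrial UMIs were kept, 29076 SAR131675, 24030 control diet, 19827 LNR and 20669 sham cells remained. The median cell held 11316, 10712, 5725 and 5851 UMIs in that order. The diet pair had been counted with another software version than the surgery pair and held more UMIs per cell, so levels of the 2 pairs are set side by side and not compared. In all, 348 barcodes occurred in both diet libraries and 130 in both surgery libraries. Cells were clustered without the collagen genes, and clusters were named as "-like" classes by marker lists. Levels are CPM (counts scaled to 1000000), the UMIs of a gene summed over a class and divided by all UMIs of that class. The libraries count 1 end of each transcript, so that levels of different genes are not scaled by length.

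Mesenchymal cells held most collagen transcripts in all 4 libraries. The kept cells held 3468668 collagen UMIs, which were 0.377% of all UMIs in SAR131675, 0.339% in control diet, 0.472% in LNR and 0.407% in sham cells. Col1a2 (19.7% of collagen UMIs), Col3a1 (19.3%) and Col1a1 (15.9%) together made up 54.8%. These encode the chains of types I and III collagen, the main fibrils of bone, tendon and skin. The next member was Col17a1 with 13.9%, which encodes the membrane collagen that anchors basal keratinocytes to the basement membrane. At the other end, Col6a4 had 52 UMIs over the 4 libraries and Col6a5 had 69.

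By structural group, the 11 fibrillar genes held 62.1% of collagen UMIs and the 4 transmembrane genes held 14.8%. The 6 type IV genes held 7.17%, and the 6 type VI genes, which form beaded microfibrils around cells, held 6.61%. The 9 FACIT genes, whose products sit on the surface of fibrils, held 4.35%. The remaining groups were small, with 2.07% for the 2 multiplexins of basement membranes, 2.01% for the 3 short-chain network genes, 0.821% for Col7a1, the anchoring fibril gene, and 0.101% for Col26a1 and Col28a1.

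Mesenchymal cells were 15.9% of SAR131675, 16.4% of control diet, 30.7% of LNR and 26.6% of sham cells. They held 65.1%, 63.1%, 70.1% and 66.1% of the collagen UMIs of these libraries. Epithelial cells held 24.5% and 26.0% in the diet pair and 10.7% and 12.3% in the surgery pair. Clusters left without a name held 4.89%, 5.56%, 13.9% and 17.0%. In the surgery pair the unnamed clusters included one of 824 LNR and 830 sham cells whose leading genes were both hair keratins and fibroblast genes.

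Among the mesenchymal classes, osteoblast-like cells had some of the highest summed collagen levels. They reached 25531 CPM in 182 SAR131675 cells, 23184 CPM in 111 control diet cells, 31711 CPM in 341 LNR cells and 32621 CPM in 275 sham cells. Fibroblast-like cells had 25246, 20989, 29395 and 32492 CPM in the same order. This class pools the mesenchymal clusters that took no more specific name. Its clusters ran from 13278 to 27660 CPM in SAR131675 and were at 14508 and 35108 CPM in LNR. Dermal papilla- or nail mesenchyme-like cells had 28213 and 28926 CPM in the diet pair but 4913 and 5084 CPM in the surgery pair. This class was 1 cluster in each pair. The agouti gene, whose symbol is a, was among the 3 leading genes of both, with Gpc5 and Rspo3 in the diet pair and with Igfbp3 and Crabp1 in the surgery pair, and whether the name covers the same cells in both was not tested. Synovial lining fibroblast-like cells were lowest among mesenchymal classes, with 4196, 4107, 4496 and 3582 CPM.

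**Figure D1:**
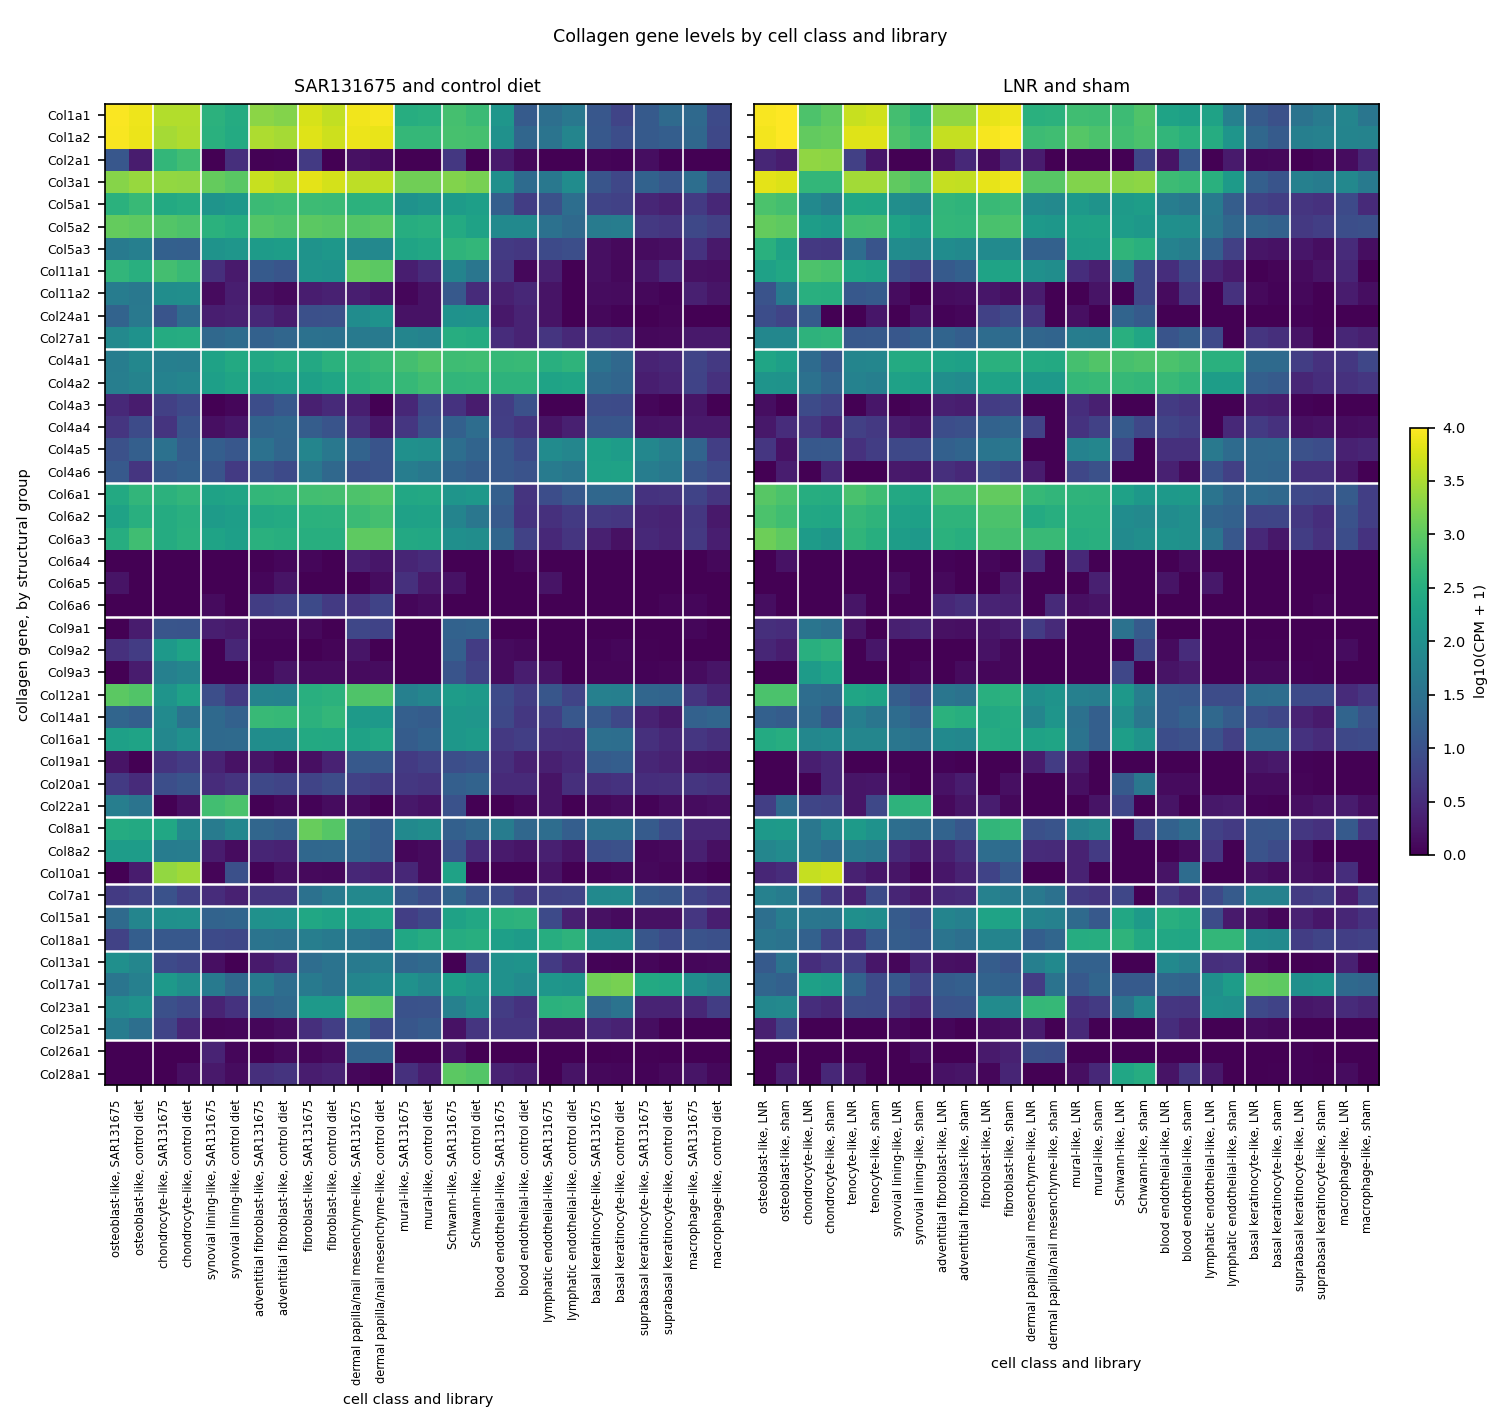
Level of each collagen gene (rows, by structural group) in each cell class and library (columns) as log10 of CPM + 1, with the diet pair on the left and the surgery pair on the right. Col1a1 and Col1a2 are high in osteoblast- and fibroblast-like cells of all 4 libraries, Col17a1 stands out in basal keratinocyte-like cells, Col28a1 in Schwann-like cells, and Col2a1, Col9a2, Col9a3 and Col10a1 in chondrocyte-like cells.

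The genes of the major fibrils were high in osteoblast- and fibroblast-like cells. Col1a1 was at 9542 CPM in SAR131675, 7814 in control diet, 9138 in LNR and 10379.9 in sham osteoblast-like cells. This was the highest class of Col1a1 except in control diet, where dermal papilla- or nail mesenchyme-like cells had 8906 CPM. Col1a2, the partner chain, was at 9141, 7523, 8517 and 9697 CPM there. Col3a1, the chain of type III collagen of soft tissue, was highest in fibroblast-like cells, at 6926, 5495, 7053 and 8088 CPM. Macrophage-like cells, which are not known for type I collagen synthesis, held Col1a1 at 21.9, 6.78, 66 and 35.8 CPM. Other blood-cell classes ran from 5.79 CPM in Langerhans-like to 642 CPM in mast cell-like cells, both of LNR, so no single background level holds for Col1a1. Col5a2, a chain that nucleates fibrils of type I collagen, was highest in osteoblast-like cells of each library, at 1115, 1035, 1122 and 1019.8 CPM.

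Of the cartilage collagens, Col2a1, Col9a2, Col9a3, Col10a1 and Col11a2 were highest in the chondrocyte-like cells of both pairs, while Col9a1 and Col11a1 were not in the diet pair. Col2a1, the chain of type II collagen of cartilage fibrils, was at 446 CPM in SAR131675, 591 in control diet, 2187 in LNR and 2013 in sham chondrocyte-like cells. With the libraries of a pair summed, no other class came within 69.3-fold of this class in the diet pair or 338-fold in the surgery pair. In SAR131675 alone osteoblast-like cells had 11.4 CPM, from 18 UMIs. Col10a1, the network collagen of hypertrophic cartilage, was at 2218, 2731, 4425 and 4938 CPM and was found in 33.2%, 32.2%, 65.3% and 71.4% of chondrocyte-like cells. In macrophage-like cells, a class that should lack it, at most 0.245% of the cells of any library held Col10a1. The median depths were 8093, 7105, 4631 and 4628 UMIs in chondrocyte-like and 7286, 7265, 3344 and 3013 UMIs in macrophage-like cells.

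The chondrocyte-like class also had the highest level of 2 chains of type IX collagen, which coats cartilage fibrils. Col9a2 was at 145, 207, 338 and 401 CPM and Col9a3 at 53.6, 65.7, 157 and 206 CPM. Col9a1, the remaining chain, was much lower, at 10.2, 9.90, 34.3 and 28.0 CPM, and in the diet pair Schwann-like cells had more of it, at 17.3 and 18.6 CPM. The UMI ratio of Col9a1 to Col9a2 in these cells was 0.0706 (interval 0.0446 to 0.107) in SAR131675, 0.0477 (0.0296 to 0.0731) in control diet, 0.101 (0.0667 to 0.149) in LNR and 0.0699 (0.0393 to 0.116) in sham. Col11a2, of the minor fibril collagen inside cartilage fibrils, was at 91.9, 92.7, 327 and 318 CPM, again highest in this class. These cells also carried type I collagen transcripts, with Col1a1 at 3459.9 and 3452 CPM in the diet pair and 774 and 1019.7 CPM in the surgery pair.

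Outside cartilage, 3 further members were at least 5 times higher in 1 class than in every other in both pairs. Col22a1, a FACIT gene of tissue junctions, was at 615 CPM in SAR131675, 734 in control diet, 389 in LNR and 411 in sham synovial lining fibroblast-like cells. Over summed libraries the next class had 44.3 CPM in the diet pair and 12.2 CPM in the surgery pair, in each case osteoblast-like cells. Col28a1, a collagen of peripheral nerve, was at 984, 854, 229 and 299 CPM in Schwann-like cells, and the next class had 2.71 and 1.93 CPM. Col26a1 was highest in dermal papilla- or nail mesenchyme-like cells at 17.5, 18.2, 8.37 and 8.11 CPM, but these rested on 106, 50, 8 and 4 UMIs. With Col2a1, Col9a2, Col9a3 and Col10a1 this made 7 such members. In all, 29 of the 44 had the same highest class in both pairs, though several of these led the next class by small margins. The share of all genes that met either rule was not taken, so neither count is read as a trait of collagen genes.

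Schwann-like cells were also the highest class for Col5a3, a minor fibrillar chain, at 396, 450.1, 420.3 and 349 CPM. In the diet pair they were the highest class for 6 members, as many as osteoblast-like and as dermal papilla- or nail mesenchyme-like cells. In the surgery pair, where Schwann-like cells numbered 104 and 117 with median depths of 1308 and 1275 UMIs, they were the highest class for 4 members. Chondrocyte-like cells led there with 9, before osteoblast-like cells with 7 and fibroblast-like cells with 6. The share of all genes highest in each class was not taken. The summed collagen level of Schwann-like cells was 8181, 7473, 7195 and 7127 CPM, above that of mural-like cells at 5360, 5818, 6524 and 6553 CPM. Both classes held fibroblast markers, at 2041, 2946, 1657 and 1351 CPM in Schwann-like and 1496, 1428, 4651 and 4174 CPM in mural-like cells. The part of other cells in these sums was not tested.

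The basement membrane collagens were spread over vessels, nerve and epidermis. Col4a1, a chain of the ubiquitous type IV network, was at 638, 801, 664 and 817 CPM in mural-like cells, the class of pericytes and smooth muscle. Schwann-like cells had 569, 584, 686 and 753 CPM and blood endothelial-like cells 476, 493, 729 and 642 CPM, so in LNR the mural-like cells were not the highest class. Col4a2, the partner chain, followed at 482, 592, 457 and 501 CPM in mural-like cells, below the blood endothelial-like cells of LNR at 506 CPM. The 2 multiplexins were split between endothelial classes. Col15a1 was highest in blood endothelial-like cells, at 357, 379, 328 and 284 CPM, and Col18a1, the source of endostatin, in lymphatic endothelial-like cells, at 309, 381, 439 and 446 CPM. Lymphatic endothelial-like cells also held the transmembrane gene Col23a1 at 352 and 381 CPM in the diet pair and 109.7 and 99.2 CPM in the surgery pair.

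In the epidermis, Col17a1 was at 1344 CPM in SAR131675, 1521 in control diet, 1103 in LNR and 1013 in sham basal keratinocyte-like cells. This class held 73.8%, 73.2%, 56.9% and 55.8% of all Col17a1 UMIs, and 97.2%, 96.9%, 96.8% and 95.9% of its cells had at least 1. Macrophage-like cells with a Col17a1 UMI were 16.5%, 9.32%, 5.02% and 3.61%, at 90.8, 62.8, 22.6 and 20.1 CPM. Other blood-cell classes ran from 9.29 CPM in monocyte-like cells of LNR to 803 CPM in erythroid-like cells of SAR131675, and mast cell-like cells of LNR and sham had 211 and 276 CPM. The median depth of the basal keratinocyte-like cells was 11433, 10667, 6665 and 6361 UMIs. Suprabasal keratinocyte-like cells, the layer above, had lower Col17a1 levels of 267, 249.9, 95.8 and 109 CPM, which lie within the range of those blood-cell classes. Col7a1, whose product forms the anchoring fibrils below the basement membrane, was at 79.3, 82.5, 56.5 and 56.2 CPM in basal keratinocyte-like cells. Dermal papilla- or nail mesenchyme-like cells came close to them in the diet pair, with 73.3 and 77.2 CPM. Fibroblast-like cells of the surgery pair had 57.0 and 45.6 CPM of Col7a1 and osteoblast-like cells 56.2 and 47.5 CPM.

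Col4a5 and Col4a6, the chains of an epidermal type IV network, were at 185 and 192 CPM in SAR131675 and 161 and 197 CPM in control diet basal keratinocyte-like cells. In LNR they were at 21.6 and 20.3 CPM, and in sham at 22.6 and 19.3 CPM. The pairs also differ in software version, depth and experiment, so these levels are only set side by side. The highest class of Col4a5 in the surgery pair was the mural-like cells, at 59.0 and 66.9 CPM.

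Among the other groups, Col6a1 and Col6a3 encode chains of type VI collagen. Col6a1 was highest in dermal papilla- or nail mesenchyme-like cells of the diet pair, at 767 and 859 CPM, and in fibroblast-like cells of the surgery pair, at 1089.8 and 1108 CPM. Col6a3 was highest in the same dermal papilla- or nail mesenchyme-like cells, at 1028 and 999 CPM, but in osteoblast-like cells of the surgery pair, at 1301 and 1008 CPM. Of the FACIT genes with the most UMIs, Col12a1 was highest in osteoblast-like cells, at 966, 828, 730.0 and 726 CPM, although dermal papilla- or nail mesenchyme-like cells of control diet were level with them at 828 CPM. Col14a1 was highest in adventitial fibroblast-like cells, at 493, 483, 358 and 319 CPM. Col8a1, a short-chain network gene of vessel walls and other membranes, was highest in fibroblast-like cells, at 1194, 893, 433 and 471 CPM. The transmembrane gene Col23a1 was highest in dermal papilla- or nail mesenchyme-like cells, at 1065, 911, 467 and 484 CPM, and Col25a1 in osteoblast-like cells of the diet pair, at 47.5 and 27.8 CPM. The osteoblast-like cells of the surgery pair had 3 and 9 UMIs of Col25a1, too few to rank the classes.

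Chains that assemble into 1 molecule were not present in the same proportions in all classes. The UMI ratio of Col1a1 to Col1a2 was 1.04 (interval 1.02 to 1.07), 1.04 (1.01 to 1.07), 1.07 (1.05 to 1.09) and 1.07 (1.05 to 1.09) in osteoblast-like cells. In adventitial fibroblast-like cells it was 0.634 (0.627 to 0.642), 0.636 (0.627 to 0.645), 0.504 (0.497 to 0.512) and 0.499 (0.491 to 0.507). The intervals of these 2 classes do not overlap in any library. The type I molecule has 2 chains from Col1a1 for each chain from Col1a2, and no mesenchymal class reached that proportion of UMIs. Such ratios compare captured transcripts of different genes, whose capture can differ, so they are read across classes rather than as chain numbers.

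For type VI collagen, the ratio of Col6a1 to Col6a2 was 1.59, 1.58, 1.54 and 1.52 in mesenchymal cells and 5.61, 6.04, 4.20 and 3.64 in basal keratinocyte-like cells. The ratio of Col6a3, the largest chain, to Col6a1 was 0.847, 0.724, 0.664 and 0.607 in mesenchymal cells but 0.0604, 0.0261, 0.0770 and 0.0392 in basal keratinocyte-like cells. The Col6a1 level behind this was low in basal keratinocyte-like cells, at 20.6, 19.6, 23.9 and 21.1 CPM, and lay within the range of the blood-cell classes, where neutrophil-like cells of SAR131675 had 48.3 CPM and mast cell-like cells of LNR 99.9 CPM. The ratio of Col4a1 to Col4a2 was steadier, at 1.35, 1.46, 1.76 and 1.81 in mesenchymal cells and 1.25, 1.30, 1.44 and 1.49 in blood endothelial-like cells. Col8a1 outnumbered Col8a2 by 19.99, 16.9, 7.76 and 8.04 in mesenchymal cells, and by 1.80, 1.62, 2.10 and 1.84 in osteoblast-like cells.

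**Figure D2:**
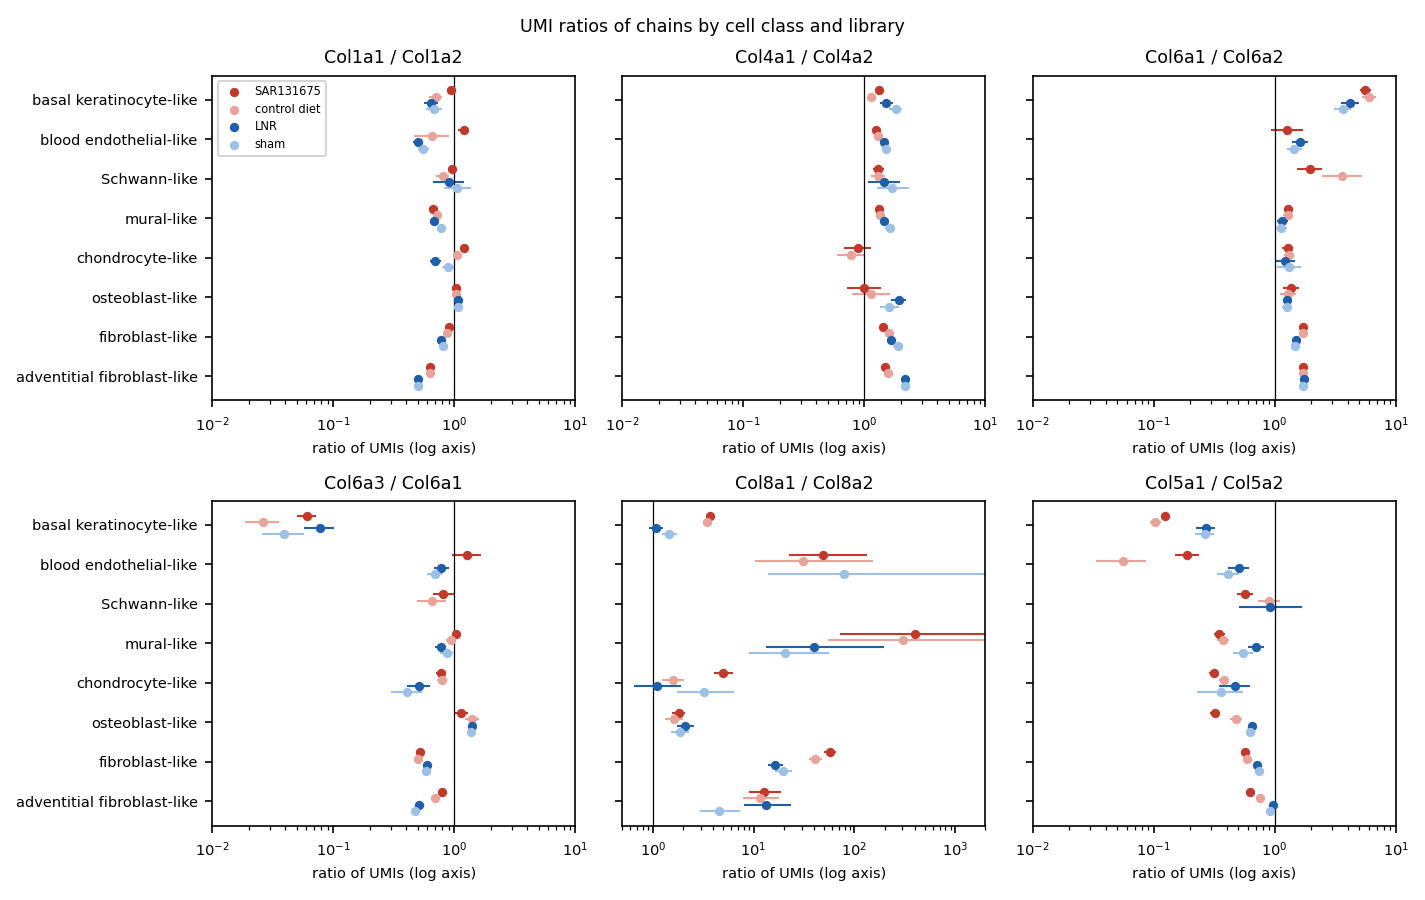
UMI ratio of 2 chains of the same collagen type (log axis) in 8 cell classes, with 1 colour per library and bars for the 95% counting interval. Col1a1 to Col1a2 lies near 1 in osteoblast-like cells of all 4 libraries, and Col6a3 to Col6a1 lies far lower in basal keratinocyte-like cells (0.0261 to 0.0770) than in the mesenchymal classes drawn. Ratios from under 50 UMIs of both chains together, or with 0 UMIs of one, are not drawn, and 3 intervals of Col8a1 to Col8a2 run past the axis.

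The profile of a gene over the clusters is described here by the Pearson correlation of log2(CPM + 10), over 38 diet and 41 surgery clusters that share libraries and depth. Of the 11530 genes that reached 1000 UMIs in both pairs, those most like Col1a1 outside the collagen list were Adamts2, Bicc1, Pcolce, Mxra8 and Reck, with mean correlations of 0.94, 0.94, 0.94, 0.93 and 0.93. Adamts2 encodes a proteinase that trims procollagen and Pcolce an enhancer of such trimming. Col4a1 was most like Hspg2, Tgfb1i1, Syde1, Plac9 and Sgce, at 0.92, 0.91, 0.90, 0.89 and 0.88, and Hspg2 encodes perlecan, another basement membrane component. Col17a1 was most like Tns4, Krt5, Fermt1, Dsg3 and Mir205hg, at 0.95, 0.94, 0.92, 0.91 and 0.91, and Krt5 is the keratin of basal cells. Col7a1, which is made on both sides of the basement membrane, had weaker matches, with Ptk7 and Gpha2 at 0.79, Pappa and Sp9 at 0.76 and Wnt10a at 0.75.

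Several collagen genes lie next to each other in the genome. The members formed 8 neighbouring pairs that involved 15 of them. Col4a1 with Col4a2 and Col6a1 with Col6a2 had correlations over the clusters of 0.99 in both pairs of libraries. Col4a3 with Col4a4 reached 0.94 and 0.93, Col3a1 with Col5a2 0.90 and 0.92, and Col4a5 with Col4a6 0.91 and 0.77 in the diet and surgery pair. The neighbours Col9a1 and Col19a1 were at 0.14 and 0.09, Col6a5 and Col6a6 at -0.06 and 0.17, and Col6a4 and Col6a5 at 0.47 and 0.15, where few UMIs limit the value. High values were not limited to neighbours, since Col1a1 was at 0.99 and 0.99 with Col1a2 and 0.95 and 0.97 with Col3a1. Those were the collagens most like Col1a1, while the one most like Col7a1, Col17a1, was at 0.73 and 0.68. Whether neighbours are more alike than other pairs of members was not tested.

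Promoter sequences are shown for the most abundant fibrillar genes, for the main epidermal member and for the neighbours Col4a5 and Col4a6, which start close to each other on opposite strands. RefSeq windows of mouse build GRCm38.p6 were found for 35 of the 44 members, with 38 windows in all, and no data of the series map to them, since the files were made with GRCm39. Each runs 5′ to 3′ on the strand of its gene up to the start site, and capitals mark the CAAT box motif CCAAT, the TATA box motif TATAAA or the GC box motif GGGCGG on either strand. The windows are Col1a2 at chr6:4505368-4505617 on the plus strand, Col3a1 at chr1:45311288-45311537 on the plus strand, Col17a1 at chr19:47692043-47692292 on the minus strand, Col4a5 at chrX:141475169-141475369 on the plus strand and Col4a6 at chrX:141474096-141474326 on the minus strand. The 49 and 19 bases nearest the start were left out for the last pair because they lie inside the genes.
Col1a2: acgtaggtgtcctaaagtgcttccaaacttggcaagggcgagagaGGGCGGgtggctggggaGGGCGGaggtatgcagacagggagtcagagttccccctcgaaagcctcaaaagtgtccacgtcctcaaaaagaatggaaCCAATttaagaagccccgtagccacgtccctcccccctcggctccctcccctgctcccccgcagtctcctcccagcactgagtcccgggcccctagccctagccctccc
Col3a1: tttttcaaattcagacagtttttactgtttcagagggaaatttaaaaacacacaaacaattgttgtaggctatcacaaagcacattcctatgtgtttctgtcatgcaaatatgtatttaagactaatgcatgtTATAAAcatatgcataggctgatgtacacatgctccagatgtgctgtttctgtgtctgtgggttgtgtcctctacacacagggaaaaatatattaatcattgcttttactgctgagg
Col17a1: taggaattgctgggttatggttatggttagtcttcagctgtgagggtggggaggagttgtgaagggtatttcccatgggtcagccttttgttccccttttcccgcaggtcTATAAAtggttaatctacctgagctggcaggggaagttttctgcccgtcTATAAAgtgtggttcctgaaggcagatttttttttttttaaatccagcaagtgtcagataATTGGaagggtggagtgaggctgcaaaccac
Col4a5: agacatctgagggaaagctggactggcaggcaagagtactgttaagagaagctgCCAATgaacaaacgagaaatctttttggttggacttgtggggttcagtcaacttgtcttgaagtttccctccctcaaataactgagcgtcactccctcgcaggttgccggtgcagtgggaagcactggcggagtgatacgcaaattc
Col4a6: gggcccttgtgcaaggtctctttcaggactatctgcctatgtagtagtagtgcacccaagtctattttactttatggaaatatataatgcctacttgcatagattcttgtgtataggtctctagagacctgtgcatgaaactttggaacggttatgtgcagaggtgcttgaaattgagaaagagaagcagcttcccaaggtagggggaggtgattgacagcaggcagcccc

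Col1a2 held 1 CCAAT and 2 GGGCGG, Col3a1 held 1 TATAAA, Col17a1 held 2 TATAAA and 1 CCAAT on the other strand, Col4a5 held 1 CCAAT and Col4a6 held none of the 3. Within 250 bases, CCAAT was present in 34.2% of the 38 collagen windows and in 33.8% of all 32851 promoters. TATAAA was present in 13.2% and 12.4%. GGGCGG was present in 57.9% and 32.7%. A match is only a run of letters in the window.

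The comparison of SAR131675 with control diet asked whether blocking VEGFR3 goes with other collagen levels in the mesenchymal cells of the digit. There the summed collagen level was 17307 CPM in 4609 SAR131675 cells and 14909 CPM in 3951 control diet cells, a log2 ratio of 0.22 (counting interval 0.21 to 0.22). Col1a1, Col1a2 and Col3a1 were each higher by less than 1.5-fold. The cartilage genes Col2a1, Col9a2 and Col9a3 were over 1.5-fold lower, while Col11a1, also of cartilage, and the transmembrane genes Col25a1 and Col23a1 were over 1.5-fold higher. Other cartilage genes did not pass, with Col9a1 at 0.39 (-0.16 to 0.95), Col11a2 at -0.09 (-0.32 to 0.15) and Col10a1 at -0.56 (-0.62 to -0.51). With 1 library per group, none of these differences can be set against the spread between mice.

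Col1a1 was at 3709 CPM in SAR131675 and 2923 CPM in control diet mesenchymal cells, a log2 ratio of 0.34 (0.33 to 0.35). Col1a2 was at 4222 and 3429 CPM (0.30) and Col3a1 at 4348 and 3684 CPM (0.24). Osteoblast markers summed to 822 CPM in SAR131675 and 599.8 CPM in control diet mesenchymal cells, with 10 of 10 detected in each, and fibroblast markers to 28772 and 31619 CPM, with 8 of 8. The ratios of these genes differed among the classes. In fibroblast-like cells the Col1a1 ratio was 0.38 (0.36 to 0.40), in osteoblast-like cells 0.29 (0.25 to 0.33), in adventitial fibroblast-like cells 0.19 (0.16 to 0.21), in dermal papilla- or nail mesenchyme-like cells -0.11 (-0.13 to -0.09) and in chondrocyte-like cells 0.00 (-0.04 to 0.05). Col3a1 was lower in SAR131675 osteoblast-like cells, at 1884 against 2378 CPM (-0.34, -0.42 to -0.26), where Col1a1 was higher.

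A difference past 1.5-fold was counted among genes with at least 50 UMIs in the pair. Of the 44 members, 42 had that many in mesenchymal cells of the diet pair, and Col6a4 and Col6a5 did not. Of the 42, 6 were over 1.5-fold higher in SAR131675, where 4.53% of all genes with as many UMIs were, and 4 were over 1.5-fold lower, where 2.49% of all genes were. No member passed 2-fold, as 1.87% of all genes did, and 9 members with at least 200 UMIs passed 1.5-fold, as 3.11% of such genes did. The count of 10 moved with the choice of cells, clustering and weights. It was 4 with no upper limit on genes or UMIs, where 7.28% of all genes passed either way. At a finer clustering it was 5, where 6.29% did. With equal weight for the mesenchymal subclasses holding at least 50 UMIs of a gene it was 1, where 5.21% did. The summed ratio under equal weight was 0.08. The median log2 ratio was 0.09 over the members and -0.01 over all genes, and 24 of the 42 members were above 0. By group, the median was 0.58 for the transmembrane genes, of which 2 of 4 were past 1.5-fold higher, 0.12 for fibrillar, -0.14 for type IV, of which 2 of 6 were past it higher and 1 lower, -0.10 for FACIT and 0.01 for type VI genes.

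The member with the largest ratio was Col25a1, a transmembrane collagen, with 234 UMIs (4.86 CPM) in SAR131675 and 97 UMIs (2.54 CPM) in control diet, a log2 ratio of 0.93 (0.59 to 1.29). The others were Col26a1 (2.47 against 1.55 CPM, 0.68), Col23a1 (176 against 112 CPM, 0.66), Col4a6 (15.9 against 10.3 CPM, 0.62), Col11a1 (213 against 139 CPM, 0.62) and Col4a5 (33.3 against 21.8 CPM, 0.61). Col11a1 encodes a chain of the minor fibrillar type XI collagen. The nearest member outside the threshold was Col17a1, at 50.02 against 35.2 CPM (0.51).

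Of these, Col11a1, Col23a1 and Col26a1 were highest in the dermal papilla- or nail mesenchyme-like cells of the diet pair, which numbered 625 in SAR131675 and 349 in control diet. Within that class the log2 ratios were 0.14 (0.08 to 0.21) for Col11a1, 0.23 (0.16 to 0.29) for Col23a1 and -0.06 (-0.56 to 0.46) for Col26a1, all below the threshold. With equal weight for the mesenchymal subclasses that held at least 50 UMIs of the gene, Col23a1 was at -0.10. For Col26a1 only the dermal papilla- or nail mesenchyme-like class held that many, so its equal-weight value was that class's -0.06. Col25a1 differed within that class too, at 19.0 against 7.28 CPM (1.38, 0.69 to 2.15), and in osteoblast-like cells at 47.5 against 27.8 CPM (0.77, 0.12 to 1.46), but in fibroblast-like cells it was lower, at 2.43 against 4.45 CPM (-0.87, -1.65 to -0.12). The osteoblast-like values rested on 75 and 27 UMIs in 5.49% and 5.41% of the cells. Those of the dermal papilla- or nail mesenchyme-like class rested on 115 and 20 UMIs in 7.04% and 3.72% of the cells. The intervals do not cover such crowding of UMIs in few cells.

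Col4a5 and Col4a6 were higher within single classes as well. Col4a5 was at 65.5 against 39.6 CPM in fibroblast-like cells (0.73, 0.54 to 0.92), 29.7 against 19.8 CPM in adventitial fibroblast-like cells (0.59, 0.40 to 0.78) and 30.2 against 13.5 CPM in chondrocyte-like cells (1.16, 0.53 to 1.83). Col4a6 was at 37.3 against 21.5 CPM in fibroblast-like cells (0.79, 0.54 to 1.05), but in chondrocyte-like cells its ratio was -0.26 (-1.0 to 0.48) and in dermal papilla- or nail mesenchyme-like cells it was at 8.42 against 9.46 CPM (-0.17, -0.88 to 0.57). In osteoblast-like cells Col4a5 had 14 against 15 UMIs (8.86 against 15.5 CPM, -0.80, -1.96 to 0.35). Col4a5, Col4a6 and Col17a1 were all found in basal keratinocyte-like cells. Col4a5 was also at 101 and 94.7 CPM in mural-like and 83.7 and 66.7 CPM in lymphatic endothelial-like cells of SAR131675 and control diet. Col17a1 was also higher in mesenchymal cells, by less than 1.5-fold. Epithelial markers were at 127 CPM in SAR131675 and 88.9 CPM in control diet mesenchymal cells, with 18 of 18 detected in each. Of the mesenchymal cells, 24.9% and 12.2% held UMIs of at least 2 markers of another lineage. Without those barcodes the log2 ratio was 0.62 for Col4a5, 0.73 for Col4a6 and 0.50 for Col17a1.

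The 4 lower members were Col9a2 (7.27 against 12.5 CPM, -0.78), Col4a3 (4.01 against 6.42 CPM, -0.68), Col9a3 (2.82 against 4.27 CPM, -0.60) and Col2a1 (23.1 against 34.9 CPM, -0.60). Col10a1 lay just outside the threshold at 109 against 161 CPM (-0.56). Apart from Col4a3, a chain of type IV collagen, these are cartilage genes. The chondrocyte-like cells were 271 of 4609 SAR131675 and 283 of 3951 control diet mesenchymal cells. Within the chondrocyte-like class the ratios were smaller, at -0.52 (-0.73 to -0.32) for Col9a2, -0.41 (-0.52 to -0.29) for Col2a1, -0.30 (-0.35 to -0.25) for Col10a1 and -0.29 (-0.65 to 0.06) for Col9a3. Col11a2 was at -0.01 (-0.30 to 0.27) and Col9a1, with 24 and 22 UMIs, at 0.04 (-0.85 to 0.95). Col11a1 was higher there, at 639 against 521 CPM (0.29, 0.18 to 0.41). Col8a1 differed more, at 237 against 76.5 CPM (1.63, 1.38 to 1.89), and was singled out after its values were seen. Col4a3 was at 7.67 against 11.5 CPM in adventitial fibroblast-like cells (-0.58, -0.89 to -0.28).

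**Figure D3:**
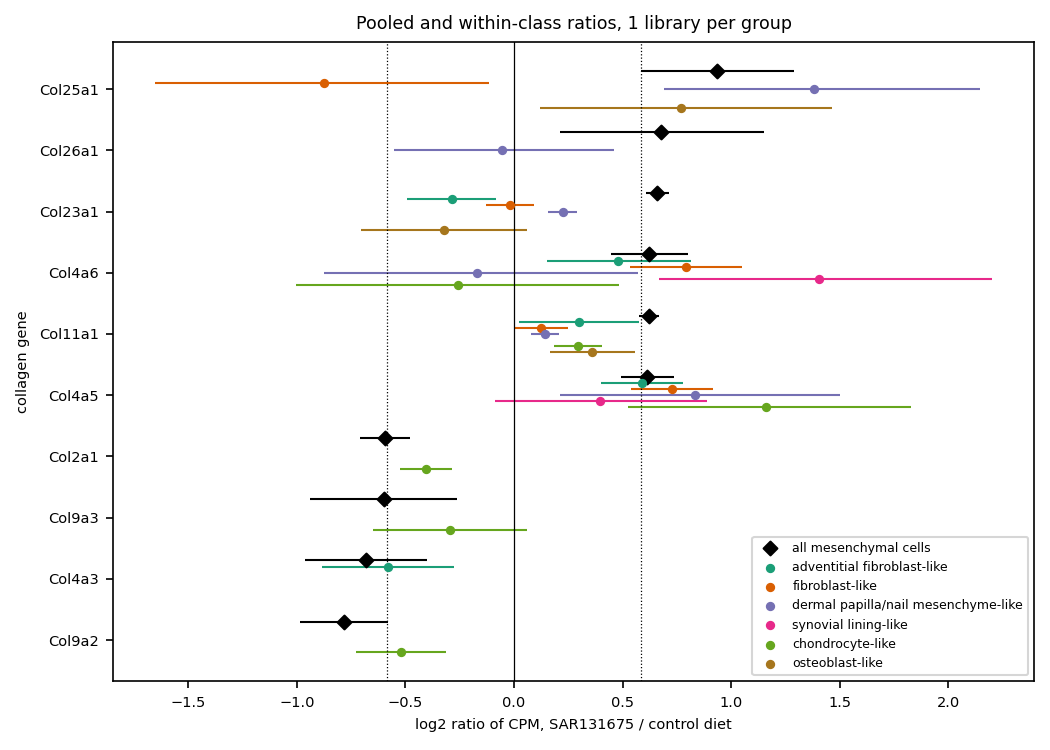
Log2 ratio of CPM, SAR131675 over control diet, for the 10 members past 1.5-fold in mesenchymal cells, with the pooled value as black diamonds, mesenchymal subclasses with at least 50 UMIs of the gene in colour and bars for the 95% counting interval. The pooled Col23a1 and Col26a1 values (0.66 and 0.68) lie above those of dermal papilla- or nail mesenchyme-like cells (0.23 and -0.06), while Col4a5 is above 0 in the 5 classes drawn.

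In osteoblast-like cells of the diet pair 6 of 25 members with at least 50 UMIs were over 1.5-fold lower with SAR131675 and 1, Col25a1, higher, where 10.1% of all genes passed either way. This class was singled out after the values were seen. Col6a1 was at 272 against 427 CPM (-0.65, -0.85 to -0.45), Col6a2 at 199 against 331 CPM (-0.74, -0.96 to -0.51) and Col6a3 at 308 against 596 CPM (-0.95, -1.13 to -0.78). Col1a1, Col1a2 and Col12a1 were higher in the same cells, with Col12a1 at 966 against 828 CPM (0.22, 0.10 to 0.35). The other 3 that were lower were Col15a1 (22.8 against 64.9 CPM, -1.51), Col24a1 (17.7 against 40.2 CPM, -1.18) and Col17a1 (35.4 against 53.6 CPM, -0.60). These cells numbered 182 and 111, and Col25a1 was found in 5.49% and 5.41% of them.

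Of 40 such genes, 32 for modification, folding, trimming and cross-linking and 8 for receptors and uptake, 39 had at least 50 UMIs in mesenchymal cells of the diet pair. Serpinh1 alone was past 1.5-fold, which is higher in 1 of 39 and lower in 0 of 39 beside 4.53% and 2.49% of all genes, and the median of the 39 was 0.00. Serpinh1 encodes the collagen chaperone HSP47 and was at 628 against 415 CPM, a log2 ratio of 0.60 (0.57 to 0.63). It was higher in each of the 6 mesenchymal classes of the diet pair, from 0.25 (0.10 to 0.41) in chondrocyte-like to 0.67 (0.61 to 0.73) in fibroblast-like cells. The next largest were lower, with Tll1, a procollagen proteinase, at 14.6 against 21.0 CPM (-0.52), Itga11, a collagen-binding integrin chain, at 17.3 against 22.4 CPM (-0.37) and Adamts14, another procollagen proteinase, at 19.7 against 24.6 CPM (-0.32).

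The comparison of LNR with sham asked the same of lymph node removal. The summed collagen level of mesenchymal cells was 16517 CPM in 6088 LNR cells and 16424 CPM in 5498 sham cells, a log2 ratio of 0.01 (counting interval 0.00 to 0.01). Over all kept cells it was higher in LNR, at 0.21, and mesenchymal cells were 30.7% of LNR and 26.6% of sham cells. Col1a1 was at 3417 and 3553 CPM (-0.06), Col1a2 at 4796 and 4877 CPM (-0.02) and Col3a1 at 4096 and 4092 CPM (0.00).

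Of the 44 members, 37 had at least 50 UMIs in mesenchymal cells of this pair. None was over 1.5-fold higher, as 2.01% of all genes were, and none over 1.5-fold lower, as 1.18% were. Likewise none with at least 200 UMIs passed 1.5-fold, as 0.733% of such genes did, and none passed 2-fold, as 0.657% did. Some other choices of cells or weights gave 1 to 4 members past 1.5-fold, with 4 of 34 when the mesenchymal subclasses had equal weight, where 2.45% of all genes passed, and 2 of 37 without barcodes with markers of another lineage, where 2.64% did. The median was 0.08 over the members and 0.02 over all genes, with 29 of the 37 above 0. The largest ratios were those of Col2a1 (65.4 against 47.9 CPM, 0.45, 0.35 to 0.56), Col7a1 (18.2 against 13.9 CPM, 0.38, 0.18 to 0.58) and Col4a6 (2.69 against 2.15 CPM, 0.33, -0.20 to 0.86). The smallest were Col22a1 (78.6 against 94.7 CPM, -0.27, -0.35 to -0.19), Col6a6 (32 UMIs in each, -0.21, -0.97 to 0.54) and Col4a5 (15.1 against 16.5 CPM, -0.13, -0.33 to 0.07). The intervals of Col4a6, Col6a6 and Col4a5 include 0.

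Chondrocyte-like cells numbered 147 in LNR and 98 in sham. Of the other members highest in that class in both pairs, the ratios over mesenchymal cells were 0.18 (0.11 to 0.25) for Col10a1, 0.12 (-0.13 to 0.37) for Col9a2, 0.00 (-0.23 to 0.24) for Col11a2 and -0.09 (-0.45 to 0.28) for Col9a3. Col9a1 and Col11a1, not highest in that class in the diet pair, were at 0.30 (-0.31 to 0.92) and 0.07 (-0.01 to 0.15). Within the chondrocyte-like class Col2a1 was at 2187 against 2013 CPM (0.12, 0.01 to 0.23), and Col10a1 was lower, at 4425 against 4938 CPM (-0.16, -0.23 to -0.09). In osteoblast-like cells Col1a1 was at 9138 against 10379.9 CPM (-0.18, -0.21 to -0.16), Col1a2 at 8517 against 9697 CPM (-0.19, -0.22 to -0.16) and Col6a3 at 1301 against 1008 CPM (0.37, 0.28 to 0.45). In synovial lining fibroblast-like cells Col1a1 was at 631 against 405 CPM (0.64, 0.56 to 0.72), the largest class difference of that gene among the mesenchymal classes of this pair. Their summed collagen level was also higher in LNR, at 4496 against 3582 CPM (0.33, 0.30 to 0.35). It was lower in the fibroblast-like clusters, at 35108 against 39074 CPM (-0.15, -0.17 to -0.14) and 14508 against 15984 CPM (-0.14, -0.17 to -0.11). Adventitial fibroblast-like cells were at 0.05 (0.04 to 0.06). The other mesenchymal classes were below 0 and smaller in size, and the intervals of tenocyte-like and dermal papilla- or nail mesenchyme-like cells included 0.

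**Figure D4:**
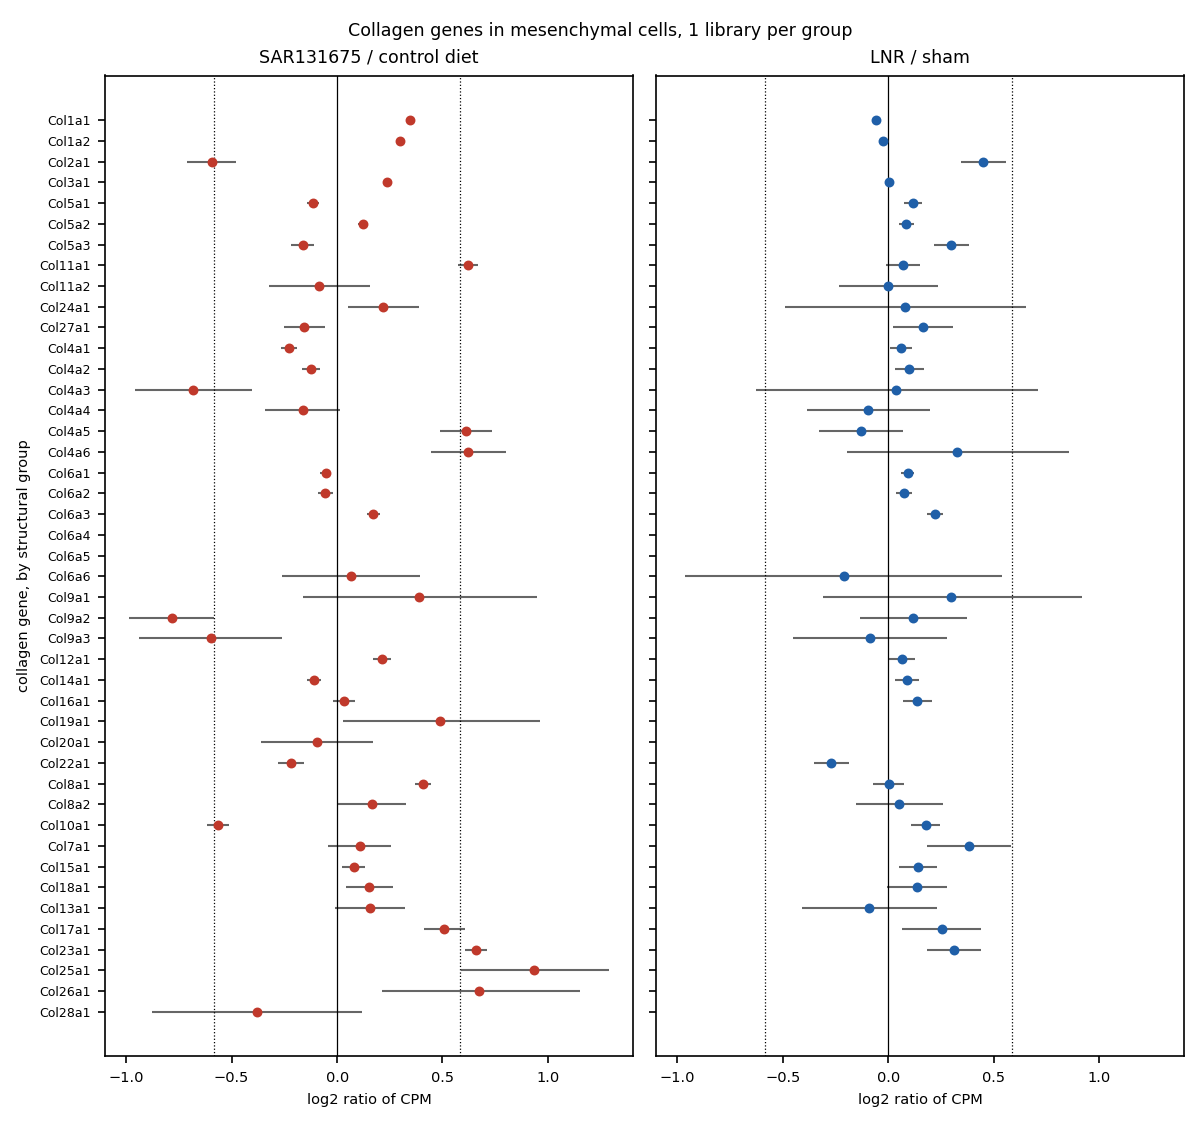
Log2 ratio of CPM in mesenchymal cells for each collagen gene with at least 50 UMIs, SAR131675 over control diet (left) and LNR over sham (right), with bars for the 95% counting interval and dotted lines at 1.5-fold. In the diet pair 10 of 42 members lie outside the lines, led by Col25a1 at 0.93 and Col9a2 at -0.78, and in the surgery pair none of 37 does.

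Of the 40 synthesis and receptor genes, 39 had at least 50 UMIs in this pair and none passed 1.5-fold, beside the 2.01% and 1.18% of all genes that did. Their median was -0.02. The largest ratios in size were those of Loxl4, a cross-linking oxidase (4.51 against 5.79 CPM, -0.36, -0.72 to -0.01), Adamts3, a procollagen proteinase (2.97 against 3.52 CPM, -0.25), P3h2, a prolyl hydroxylase (7.49 against 6.48 CPM, 0.21), and Colgalt2, a collagen galactosyltransferase (17.3 against 19.9 CPM, -0.20). Serpinh1 was at 511 and 515 CPM (-0.01).

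In basal keratinocyte-like cells the collagens of the epidermal anchor differed little in either pair. In the diet pair Col17a1 had a log2 ratio of -0.18 (-0.19 to -0.17), Col7a1 of -0.06 (-0.10 to -0.01), Col4a5 of 0.21 (0.17 to 0.24), Col4a6 of -0.04 (-0.07 to -0.01) and Col18a1 of 0.05 (0.00 to 0.09). In the surgery pair these were 0.12 (0.10 to 0.14), 0.01 (-0.09 to 0.10), -0.07 (-0.22 to 0.08), 0.07 (-0.09 to 0.23) and 0.09 (0.01 to 0.17). Of 32 members with at least 50 UMIs in the diet pair, 8 were over 1.5-fold higher and 2 lower, where 6.13% of all genes passed either way, and of 25 in the surgery pair 3 were higher, where 2.59% of all genes passed. Higher in the diet pair were Col1a1, Col1a2, Col3a1, Col5a3, Col6a3, Col11a1, Col14a1 and Col15a1, and in the surgery pair Col1a2, Col3a1 and Col6a3, each at under 21 CPM in both libraries. Col1a1 was at 11.1 against 5.55 CPM (1.00, 0.84 to 1.16) in the diet pair, and Col1a2 at 20.5 against 13.1 CPM (0.64, 0.47 to 0.82) in the surgery pair. Fibroblast markers in these cells summed to 545 and 518 CPM in the diet pair and 503 and 495 CPM in the surgery pair, with 8 of 8 detected. Col23a1 was lower with SAR131675, at 21.7 against 33.0 CPM (-0.61, -0.69 to -0.53).

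In blood endothelial-like cells the collagens of the vessel's own basement membrane were close in the diet pair. Col4a1 was at 476 and 493 CPM (-0.05, -0.13 to 0.03), Col4a2 at 381 and 379.8 CPM (0.00, -0.08 to 0.09), Col15a1 at 357 and 379 CPM (-0.08, -0.17 to 0.01) and Col18a1 at 183 and 158 CPM (0.21, 0.07 to 0.34). Of 21 members with at least 50 UMIs, 12 were over 1.5-fold higher and 1, Col4a3, lower in SAR131675, where 6.08% of all genes passed either way. Col1a1 had 797 UMIs in 706 SAR131675 cells and 60 UMIs in 581 control diet cells (125 against 13.1 CPM, 3.25, 2.87 to 3.66). Col1a2 was at 105 against 20.1 CPM (2.38) and Col3a1 at 98.3 against 23.6 CPM (2.06). The other 9 that were higher were Col4a5, Col5a1, Col6a1, Col6a2, Col6a3, Col7a1, Col8a1, Col12a1 and Col14a1.

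The Col1a1 UMIs were unevenly spread, since 91 SAR131675 and 34 control diet cells had any and 1 SAR131675 cell held 179. Fibroblast markers summed to 556 CPM in the SAR131675 and 326 CPM in the control diet cells of this class, with 8 of 8 detected, against 28772 and 31619 CPM in mesenchymal cells. Osteoblast markers summed to 20.9 and 25.6 CPM. When barcodes with at least 2 markers of another lineage were removed, which was an alternative chosen after seeing the data, 6 of 15 members were higher and 1 lower, where 5.62% of all genes passed, and Col1a1 was at 52.9 against 7.29 CPM (2.86, 2.29 to 3.48). In the surgery pair Col1a1 was at 211 and 190.0 CPM in this class (0.15, -0.01 to 0.32), and fibroblast markers at 2159 and 2101 CPM. There none of 21 members was higher and 2 were lower, where 4.44% of all genes passed, and 74 of the 79 sham UMIs of Col10a1, one of the 2, came from 1 cell.

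In lymphatic endothelial-like cells, the cells whose growth factor receptor SAR131675 blocks, Col18a1 was at 309 in SAR131675 and 381 CPM in control diet (-0.30, -0.48 to -0.12), Col4a1 at 332 and 402 CPM (-0.27, -0.44 to -0.10) and Col23a1 at 352 and 381 CPM (-0.12, -0.28 to 0.05). These classes held 244 and 249 cells. Of 13 members with at least 50 UMIs 1 was over 1.5-fold higher and 3 lower, where 8.72% of all genes passed. The 3 were Col1a2 (33.9 against 64.8 CPM), Col3a1 (39 against 87.5 CPM) and Col5a1 (8.95 against 26.4 CPM), and fibroblast markers were at 800 against 1211 CPM in the same cells. Without barcodes with markers of another lineage 1 of 7 members was higher and none lower, where 9.4% of all genes passed, and Col1a2 had 11 against 8 UMIs, Col3a1 7 against 8 and Col5a1 7 against 6. In the surgery pair Col18a1 was at 439 and 446 CPM (-0.02, -0.20 to 0.16) and Col4a1 at 351 and 347 CPM (0.02, -0.19 to 0.22). There 8 of 13 members were higher and 1 lower, where 6.55% of all genes passed. Col1a1 led these with 243 UMIs in 24 of 218 LNR cells and 59 UMIs in 19 of 209 sham cells, 89 of the 243 in 1 cell. Fibroblast markers reached 1933 CPM in lymphatic endothelial-like cells of LNR against 1330 CPM in those of sham. Without barcodes with markers of another lineage 3 of 8 members were higher and 1 lower, where 7.34% of all genes passed, and Col1a1 was at 212 against 22.9 CPM (3.21, 2.39 to 4.16).

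In mural-like cells the vascular collagens were lower with SAR131675 by less than 1.5-fold, with Col4a1 at 638 against 801 CPM (-0.33, -0.40 to -0.25), Col4a2 at 482 against 592 CPM (-0.30, -0.38 to -0.21) and Col18a1 at 238 against 302 CPM (-0.35, -0.47 to -0.22). None of 24 members passed 1.5-fold, where 6.23% of all genes did, but without barcodes with markers of another lineage 1 of 22 was higher and 3 were lower, where 6.53% of all genes passed. In the surgery pair Col4a1 was at 664 against 817 CPM (-0.30, -0.41 to -0.19) and Col18a1 at 296 against 306 CPM (-0.05, -0.22 to 0.13), with 3 of 21 members higher and 1 lower, where 6.01% of all genes passed. Osteoblast markers in these surgery mural-like cells summed to 256 CPM in LNR, with 10 of 10 detected, and 66.9 CPM in sham, with 7 of 10 and Bglap, Bglap2 and Ibsp at 0. Fibroblast markers summed to 4651 and 4174 CPM there and to 1496 and 1428 CPM in mural-like cells of the diet pair. In Schwann-like cells Col28a1 was at 984 against 854 CPM (0.20, 0.08 to 0.33) with SAR131675 and at 229 against 299 CPM (-0.39, -1.04 to 0.26) with LNR. In the diet pair 3 of 25 members were higher and 2 lower, where 11.9% of all genes passed, and in the surgery pair 2 of 12 were higher, where 7.54% of all genes passed. Without barcodes with markers of another lineage 2 of 18 members were higher and 0 lower in mural-like cells of the surgery pair, where 6.13% of all genes passed. In Schwann-like cells the counts became 1 higher and 1 lower of 22 in the diet pair, where 9.5% of all genes passed, and 2 higher and 2 lower of 10 in the surgery pair, where 8.03% did. In Schwann-like cells of the diet pair osteoblast markers summed to 133 CPM in SAR131675 (7 of 10 detected) and 46.5 CPM in control diet (5 of 10), and fibroblast markers to 2041 and 2946 CPM. The Schwann-like cells of LNR and sham had osteoblast markers at 37.1 and 37.3 CPM and fibroblast markers at 1657 and 1351 CPM. One of the 3 diet members higher in Schwann-like cells was Col10a1, with 344 UMIs in 3 SAR131675 cells, 175 of them in 1 cell, and 0 UMIs in control diet cells.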

How the data were processed

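Single-cell suspensions of pooled mouse digits were sequenced as 4 droplet libraries. The files deposited for each library hold unnormalised UMI counts of every gene in every barcode. Per the file headers, these counts came from Cell Ranger 8.0.1 for the diet pair and 6.1.2 for the surgery pair, while the submitters' processing notes name 6.1.2 and GRCm39 throughout. By default these versions differ in whether intronic reads count, and the setting used is not given in the sources used here. The deposited barcodes numbered 38464 (SAR131675), 30831 (control diet), 21669 (LNR) and 22539 (sham), with 585284877, 448276501, 168507188 and 175998346 UMIs.

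Each pair was clustered on counts scaled to 10000 per cell, with 2000 variable genes other than collagens, 30 principal components, 20 neighbours and the Leiden method at resolution 0.7. A cluster took a name at a mean scaled marker score of at least 0.5, from at least 3 detected markers and with every other lineage below 0.65 of it. A mesenchymal cluster took a specific class name only if that class scored at least 0.65 and no other specific class reached 0.8 of it. Other mesenchymal clusters were called fibroblast-like, so that class is a remainder. These scoring rules were set after clusters had been seen, and other names could give other class values. Doublets were left in. Barcodes with UMIs of at least 2 markers of another lineage were removed as an alternative, counting only markers at no more than 5% of their highest level in clusters of other lineages, a limit chosen after seeing the data. Only epithelial, endothelial, immune and mesenchymal markers were used. In clusters left without a name, each of these lineages counted as another lineage.

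UMIs were summed per class. Levels have exact Poisson intervals and log2 ratios exact conditional intervals at 95%, which cover counting error only. No test was made, since each group has 1 library. The collagen genes and all lists were chosen with earlier results of these data known. Named with values were the 2 members with the most UMIs in each structural group, members at least 5 times higher in 1 class than in every other, and the 3 largest and smallest ratios per pair. Of the synthesis and receptor list the 4 largest ratios in size were named. Other members, such as Col1a1 as partner of Col1a2, were added for their role or after their values were seen. For Col1a1, Col4a1, Col7a1 and Col17a1 the 5 genes with the most similar profile were named. The counting and naming steps were run on simulated data with independent counts and clear marker profiles. That run bears neither on UMIs crowded in single cells nor on class names within a lineage. Python 3.11.15, numpy 2.4.6, scipy 1.17.1, pandas 2.3.3, igraph 0.11.9 and matplotlib 3.10.9 were used.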

Additional observations from a re-analysis of the deposited data

How the results depend on the processing

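No paired analysis was possible because each group has 1 library, so the groups share fewer than 2 replicate numbers, and for the same reason no replicate was left out. The limits on cells, the clustering and the weight of each class moved several values, and the cause was not tested.

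The diet ratio of summed collagen (0.22) was 0.187 with no upper limit on genes or UMIs, 0.161 at resolution 1.2, 0.152 with cells chosen by their own UMIs, 0.153 over all kept cells, 0.203 as a mean over cells and 0.0787 with subclasses weighted equally. The 10 of 42 members past 1.5-fold (7.02% of all genes) were 4 of 42 (7.28%), 5 of 42 (6.29%), 6 of 40 (5.51%), 3 of 43 (6.79%), 5 of 42 (8.17%) and 1 of 42 (5.21%) under these in the same order, and 0 at 2-fold. Without barcodes with markers of another lineage the diet ratio was 0.216 and the count 9 of 42 (6.88%). Equal weight took, for each gene, only the subclasses with at least 50 UMIs of it. Col23a1 (-0.10) and Col26a1 (-0.0563) reversed direction there, and the Col26a1 value was that of dermal papilla- or nail mesenchyme-like cells alone.

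The surgery ratio (0.01) was 0.0918 with no upper limit, -0.0196 without barcodes with markers of another lineage, 0.0236 at resolution 1.2, -0.0346 with cells chosen by their own UMIs, 0.211 over all kept cells and 0.00065 as a mean over cells. The count of members past 1.5-fold (0 of 37, beside 3.19% of all genes) was 2 of 37 without those barcodes (2.64%), 3 of 33 by own UMIs (2.55%), 3 of 41 over all kept cells (3.68%), 1 of 37 as a mean over cells (3.94%) and 4 of 34 with equal weight (2.45%).

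The share of collagen UMIs in mesenchymal cells of SAR131675, control diet, LNR and sham was 65.0%, 62.3%, 68.9% and 64.4% with no upper limit, 65.4%, 63.5%, 71.2% and 67.4% at no more than 5% mitochondrial UMIs, 63.3%, 64.0%, 78.0% and 76.5% without barcodes with markers of another lineage, 56.3%, 58.1%, 71.3% and 67.2% at resolution 1.2, and 15.0%, 23.9%, 19.3% and 20.8% with cells chosen by their own UMIs, which takes fewer cells. With an unnamed diet cluster led by Apod, Cfd and Car3 added, an alternative chosen after seeing the data, it was 67.6% in SAR131675 and 65.7% in control diet. Removing barcodes with markers of another lineage also took barcodes of unnamed clusters out of the total, and the part of this in the shares was not tested.

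Removing barcodes with markers of another lineage from the other classes, also chosen after seeing the data, gave 7 diet members past 1.5-fold against 13 in blood endothelial-like, 1 against 4 in lymphatic endothelial-like, 2 against 5 in Schwann-like, 4 against 0 in mural-like and 9 against 10 in basal keratinocyte-like cells. The numbers in the surgery pair were 0 against 2, 4 against 9, 4 against 2, 2 against 4 and 3 against 3 for blood endothelial-like, lymphatic endothelial-like, Schwann-like, mural-like and basal keratinocyte-like cells. After removal, the members with enough UMIs and the share of all genes past 1.5-fold were 31 (5.88%) and 25 (2.41%) in basal keratinocyte-like cells of the diet and surgery pair and 16 (4.18%) in blood endothelial-like cells of the surgery pair. Of 599 values of named genes under alternatives 544 kept their direction, and of 109 values of genes past 1.5-fold 62 stayed past it. Few UMIs limit Col6a4, Col6a5, Col6a6 and Col26a1, and few cells limit the Schwann-like class of the surgery pair.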

Other observations

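Some members whose highest class was not given above are described here. Col16a1, a FACIT gene, was highest in the surgery pair in Langerhans-like cells, the immune cells of the epidermis. It was at 405 CPM (interval 341 to 478) in 68 LNR cells and at 375 CPM (326 to 430) in 115 sham cells, from 140 and 210 UMIs. It was found in 76.5% and 68.7% of these cells, at median depths of 4635 and 4791 UMIs, and in 1.59% and 1.74% of macrophage-like cells, at median depths of 3344 and 3013 UMIs. Fibroblast-like cells of LNR were at 297 CPM, and osteoblast-like cells at 281 and 307 CPM. No cluster of the diet pair took the Langerhans-like name, so this was not examined there.

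Col13a1, a transmembrane gene, was highest in blood endothelial-like cells when the libraries of a pair were summed, though dermal papilla- or nail mesenchyme-like cells of sham had 79.1 CPM. Its level was 78.3 CPM for LNR against 55.3 CPM for sham (log2 ratio 0.50, 0.21 to 0.79), and 103 and 111 CPM in SAR131675 and control diet (-0.10, -0.27 to 0.07). Col19a1, a FACIT gene, was highest in basal keratinocyte-like cells of the diet pair, at 12.9 and 14.4 CPM, and had 0.691 and 0.887 CPM in those of the surgery pair, from 21 and 30 UMIs. The pairs differ in software version, and the part of that difference was not tested.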
